A study of Mus musculus with 80 samples.

Results

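Whole-tissue RNA of wild-type (WT) mouse brain was compared with that of 4 other organs of WT mice. The 8 arrays titled WT with the tissue Brain were set against the 32 WT arrays of heart, kidney, liver and lung. The 8 brain arrays are 8 of the 80 arrays of the series, and no WT brain array was left out. The series was built around mice that lack Es-1, the plasma carboxylesterase encoded by Ces1c, a rodent enzyme that binds nerve agents in the blood. The remaining 40 arrays, the same 5 tissues from the knockout (KO) mice, served here as a repeat of each brain comparison. All mice were untreated and had a C57BL/6 background, and their ages were not given. Each tissue had 4 female and 4 male WT arrays. The 40 WT arrays came from 11 animals, of which 8 gave brain, heart, kidney and liver and 5 of these 8 also gave lung. Frozen tissue was pulverised before RNA extraction, and the way the brains were removed was not described in the sources used here.

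The brain is made of neurons, which signal through electrical excitability and the release of transmitter from vesicles, and of glia. Astrocytes take up transmitter and support the neurons, oligodendrocytes wrap axons in myelin, and microglia are the resident macrophages. Brain vessels form a tight barrier, and the tissue is known for low display of antigen on MHC molecules and for relying on glucose more than on fatty acids.

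Each value is an expression level on the log2 scale, so a difference of 1 log2 unit is a 2-fold difference in array signal. One probe set was kept per gene, which left 17097 genes. A gene was called where limma gave a Benjamini-Hochberg adjusted p under 0.05 over all 17097 genes and the means differed by at least 1 log2 unit, with females and males weighted equally. A gene above every other tissue was called higher in brain against heart, kidney, liver and lung alike, and its size is brain minus the highest other tissue. A gene below every other tissue was called lower against all 4, and its size is brain minus the lowest other tissue. Each p printed below for such a gene is the largest of its 4 adjusted p-values. A mean below 4.07, the median of all values, is called dim, because differences among dim values are compressed. Of 108 named genes called above or below that have several probe sets, 63 had every set in the same class, and 1 had a set in the opposite class. That gene was Elavl1, called below, with 2 of its 4 sets above. Genes described below with a set that was not called in the gene's direction against all 4 organs are Acadl, Camk2a, Car3, Casp6, Cdh5, Cebpb, Col14a1, Col3a1, Cx3cr1, Dnm3, Dsp, Elavl1, Fabp4, H2-K1, Itgb1, Kif5a, Mobp, Mylk, Pcp2, Pfkp, Pkp2, Psmb8, Psmb9, Ptbp1, Scn2a, Slc2a3, Syp, Trem2, Tubb5 and Vamp2. RNA of a whole tissue does not separate a lower number of cells of a type from less RNA per cell. The gene lists below and their members were chosen with earlier results of these data known. Their shares therefore describe the chosen genes and are no test of a function. Of all genes 9.62% were above and 4.3% below every other tissue, which are the shares to set beside each list.

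The brain label was checked on Snap25, Gfap and Mbp, which mark neurons, astrocytes and oligodendrocytes. Snap25, a membrane protein of the vesicle fusion machinery, had its lowest brain value at 12.27, its median at 12.46 and its highest at 12.70, and the 32 other arrays lay between 2.61 and 4.04. Mbp, a structural protein of myelin, ran from 12.80 through a median of 13.16 to 13.30 in brain, against 3.49 to 7.50 in the other arrays. Gfap, an intermediate filament of astrocytes, ran from 5.19 through 5.83 to 5.99, against 3.04 to 4.09. None of the 3 genes overlapped between brain and the other organs. Brain minus the highest other tissue was 9.23 for Snap25 (SE 0.12, adjusted p = 5.24e-38 by limma), 8.06 for Mbp (adjusted p = 8.24e-25) and 1.94 for Gfap (adjusted p = 8.31e-21). Of lists of organ markers, the one with the highest mean was that of the labelled tissue in 40 of 40 WT arrays and in 80 of 80 arrays. Some WT comparison arrays also carried markers of another organ: the mean of the liver markers reached 9.65 in 1 heart array (median 4.76 over the 8 hearts), and the mean of the heart muscle markers was 5.98 to 9.25 in the lungs. Without 4 arrays with high markers of another organ (2 brains, 1 heart and 1 kidney), 1641 genes were above and 738 below every other tissue. The lung arrays stayed in that fit. Ces1c, the gene deleted in the KO mice, was low in brain in both genotypes (2.89 to 3.31 in WT and 2.96 to 3.28 in KO), so brain arrays do not check the genotype. In liver, its main source, it read 12.11 to 12.63 in WT and 9.70 to 12.04 in KO, without overlap but with the highest KO liver close to the WT range.

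**Figure D1:**
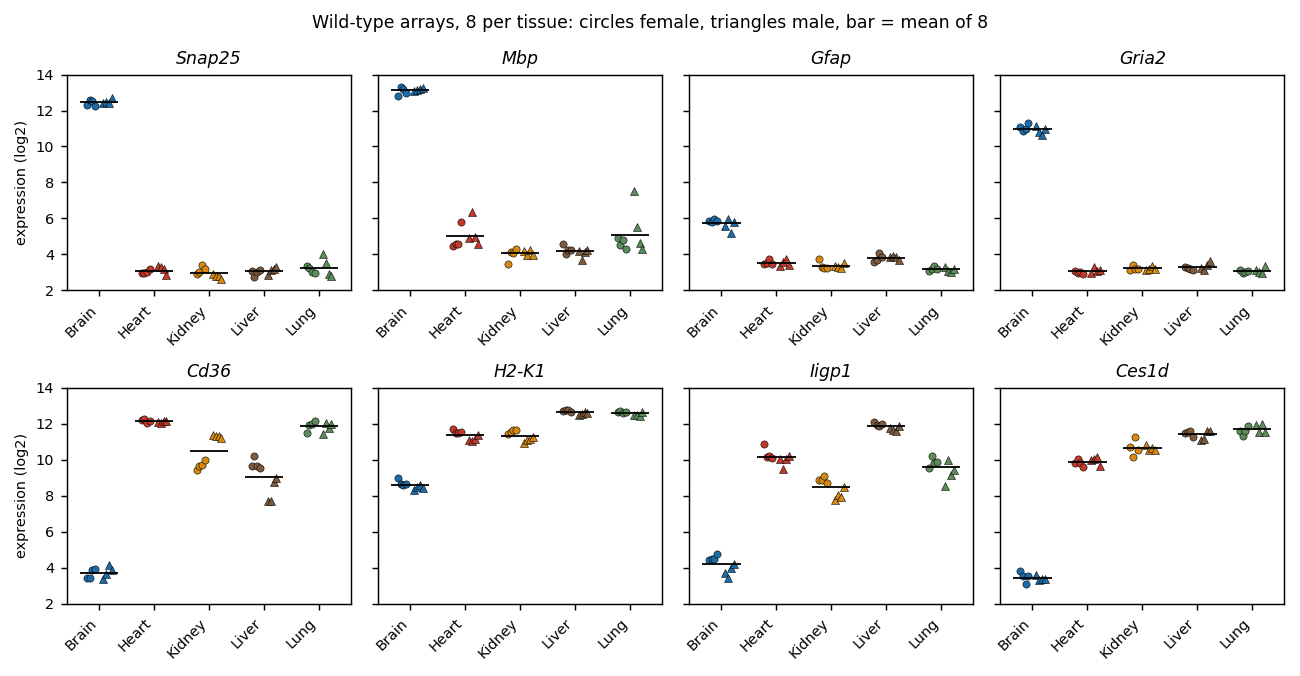
Expression (log2, vertical axis) of 8 genes in each of the 40 WT arrays by tissue, with circles for females, triangles for males and a bar at the mean of 8. The 8 brain arrays lie above all 32 others for Snap25, Mbp, Gfap and Gria2 and below all 32 for Cd36, H2-K1, Iigp1 and Ces1d.

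Several brains stood apart in genes of single brain regions or of neighbouring tissue. In the brain of WT female 1265, Gabra6, a GABA receptor subunit of cerebellar granule cells, read 3.64 against 9.28 to 11.28 in the other 7 brains, and Pcp2, a Purkinje cell gene, read 3.75 against 9.75 to 11.39. The mean of 16 cerebellar genes was 5.31 in that brain and 7.34 to 8.93 in the others. Drd1, the D1 dopamine receptor of striatal neurons, was 4.21 in the brain of WT male 902, 3.67 in that of WT male 903, and 6.22 to 7.57 in the remaining 6. Pmch, a hypothalamic peptide, read 3.71 in WT male 903, 3.50 in WT male 1262 and 5.50 in WT female 1264, against 7.37 to 9.0. Prl, the pituitary hormone prolactin, reached 9.64, 8.88 and 7.37 in WT females 876, 936 and 1265 and was 3.38 to 4.03 elsewhere. The mean of 9 pituitary hormone genes was 4.98, 4.83 and 4.43 in these females. It was 4.11 in WT male 902, 3.82 in WT male 903 and 3.39 to 3.43 in the others. Hba-a1, an alpha globin, was 9.86 in WT female 876 and 12.72 to 13.45 elsewhere, and Ckm, muscle creatine kinase, was 7.79 in WT female 1264 and 3.62 to 3.98 elsewhere. Snap25 stayed within 12.27 to 12.70 in all 8. Which regions each sample held, and the part this had in any result, was not tested. Without the brains of WT female 1265 and WT males 902 and 903, 1643 genes were above and 751 below every other tissue, against 1645 and 736 with them.

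**Figure D2:**
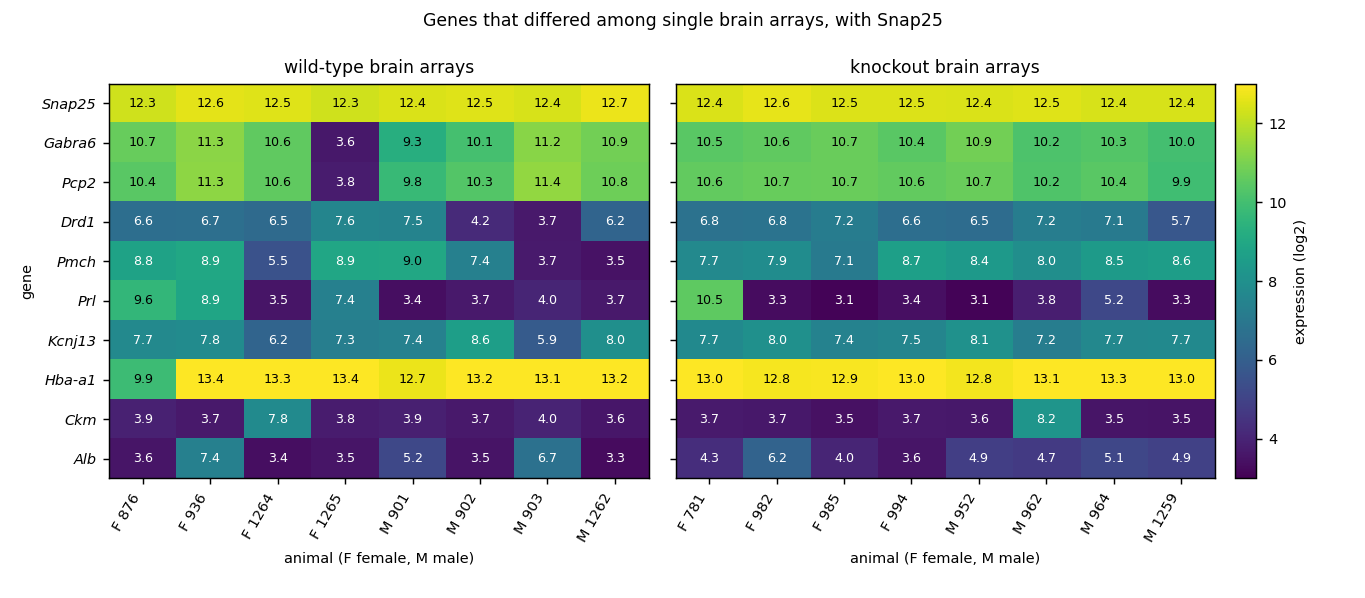
Expression (log2, colour and printed value) of 10 genes in the 8 WT brain arrays (left) and the 8 KO brain arrays (right), 1 column per animal. Snap25 is even across the brains, whereas Gabra6 and Pcp2 are low in WT female 1265, Drd1 is low in WT males 902 and 903, and Prl is high in 3 WT females and in KO female 781.

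More genes were set apart from the other organs in brain than in heart, kidney, liver or lung. Of 17097 genes, 1645 (9.62%) were above every other tissue and 736 (4.3%) were below. The same rule gave 568 above and 155 below for heart, 543 and 67 for kidney, 716 and 583 for liver, and 940 and 130 for lung. All 8 brains lay above all 32 other arrays for 1578 of the 1645 genes, and below all 32 for 693 of the 736. Overlap was counted only among genes called from these same arrays, so high shares follow in part from the calling and are no separate check. The higher genes reached further: 972 of the 1645 were at least 2 log2 units above the next tissue and 206 at least 5, while 202 of the 736 were at least 2 units below and 13 at least 4. The median brain level was 8.18 for the higher genes, 5.39 for the lower genes and 5.55 for all genes. Of the higher genes 621 (37.8%) were dim in all 4 other organs, and of the lower genes 119 (16.2%) were dim in brain. Genes on the X chromosome made up 104 (6.32%) of the higher set, 14 (1.9%) of the lower set and 596 (3.49%) of all genes. No test of these shares was made.

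Genes of the axon and its cytoskeleton were higher in brain in most cases. Of 36 measured genes, 29 were above every other tissue and none was below, with a median brain minus highest other tissue of 4.28 against -0.48 over all genes. Kif5a, a neuronal kinesin motor, ran from 12.17 through 12.29 to 12.46 in brain, and no other array passed 3.99. Its difference of 8.50 (adjusted p = 6.4e-43 by limma) was joined by 8.62 for Nefl and 8.02 for Nefm, the light and medium neurofilaments, and 8.13 for Stmn3, a regulator of microtubules. Tubb3, the neuronal beta-tubulin, differed by 6.53, and Uchl1, an abundant neuronal ubiquitin hydrolase, by 5.38.

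Nearly all listed genes of the release machinery were higher in brain. Of 33 measured genes of the synaptic vesicle and its release, 32 were above every other tissue and none below. The share of all genes above was 9.62%, and the median of the list was 5.0. The count was 32 under every leave-one-out fit. Syt1, the calcium sensor of release, had a brain mean of 12.46, and its smallest difference was 4.70, since liver read 7.77 while heart, kidney and lung read 3.63 to 3.70. Vesicle membrane proteins Syp and Synpr, the second a relative of the first, differed by 5.84 and 6.05. On the receiving side, 19 of 26 postsynaptic genes were above every other tissue, with a median of 3.33. Camk2a and Camk2b, the calcium-dependent kinases of the synapse, differed by 4.04 and 4.67.

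Transmitter genes were counted in 3 lists, whose shares were not tested against each other. Of 28 glutamate genes 23 were above every other tissue (median 2.88), of 23 GABA and glycine genes 18 (median 4.70), and of 28 monoamine and acetylcholine genes 10 (35.7%, median 0.16), beside 9.62% of all genes. Of the last list 7 genes were dim in all 5 tissues. Gria2, an AMPA-type glutamate receptor subunit, ran from 10.64 through 10.98 to 11.32 in brain and from 2.93 to 3.64 elsewhere. That difference of 7.70 (adjusted p = 3.29e-41) had its counterpart in 8.22 for Gad1, which makes GABA (11.16, 11.47 and 11.68 at its lowest, median and highest, adjusted p = 2.82e-42). Ache, the acetylcholinesterase that nerve agents inhibit, ran from 6.90 through 7.24 to 7.71 in brain and from 3.07 to 4.32 elsewhere, a difference of 3.40 (adjusted p = 3.2e-25). Bche, the related butyrylcholinesterase, was neither above nor below: its mean was 5.31 in brain, 10.10 in liver, 7.56 in heart, 5.6 in lung and 4.13 in kidney. Hrh3, the histamine receptor of nerve terminals, differed by 2.94.

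Excitability, peptides and neuronal regulators followed. Of 32 voltage-gated channel genes 25 were above every other tissue (median 3.41), led by Scn2a, a sodium channel, at 7.62. Slc12a5, the chloride extruder that makes GABA inhibitory, ran from 11.77 through 11.81 to 12.26 in brain and from 3.90 to 5.84 elsewhere, and differed by 6.78 (adjusted p = 2.41e-32 by limma). Of 34 genes of neuropeptides and secretory granules 27 were above (median 3.41). Among them Chgb, a granule protein, differed by 7.74, although 1 kidney array read 9.38, and Pcsk1n, an inhibitor of prohormone cleavage, by 7.75. Pomc and Avp, precursors made by few cells, depended on single brains. Without WT male 902 Pomc differed by 0.90, and without WT male 901 Avp differed by 0.89, both short of the 1-unit minimum. WT male 902 also had the highest mean of pituitary hormone genes among the WT male brains, 4.11. The part of pituitary tissue in the Pomc difference was not tested. Of 34 neuronal transcription factors 23 were above (median 2.03), and of 20 neuronal RNA-binding proteins 13 (median 1.92). Celf4 and Rbfox3, regulators of splicing, differed by 7.64 and 6.44.

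Neuronal genes such as Gria2 are known targets of REST, a repressor that silences neuronal genes outside the nervous system and binds the RE1 element. RefSeq promoter windows, 250 bases before to 50 after the start of the gene on GRCm38.p6, were matched by symbol for 1254 of the 1645 higher genes, 597 of the 736 lower genes and 13605 genes in all. The core letters searched were GCACC and GGACAG with any 2 bases between, on both strands. They stood in a window of 7 of the higher genes (0.558%), 0 of the lower genes and 18 of all genes (0.132%). A gene counted once if any of its windows matched, and some genes have several windows. Other forms gave other shares. The full RE1 word stood in 0 of the higher genes and 1 of all genes (0.00735%). The right side of the word stood in 0.638% of the higher genes against 0.25% of all. The long left side stood in 1.04% against 0.463%, and the short left side CAGCACC in 10.1% against 8.96%. The core pattern is 1 of 18 searched, some of them overlapping forms of RE1, and was chosen for display after the counts were seen. Gad2, the second GABA-making enzyme, whose brain values ran from 8.47 to 10.02 and which differed by 5.84, was picked after its window was seen. The windows are shown for 3 transmitter genes because they carry the core, which is in capitals, read 5′ to 3′ on the strand of the gene. In Gria2 and Hrh3 the core lies on the opposite strand and reads CTGTCC and GGTGC.
Gria2 (chr3:80802963-80803035, minus strand, core from base -170): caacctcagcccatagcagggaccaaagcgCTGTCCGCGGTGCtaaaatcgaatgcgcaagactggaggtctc
Gad2 (chr2:22622135-22622207, plus strand, core from base -162): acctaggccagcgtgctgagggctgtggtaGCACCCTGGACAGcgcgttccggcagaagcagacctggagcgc
Hrh3 (chr2:180104548-180104620, minus strand, core from base -183): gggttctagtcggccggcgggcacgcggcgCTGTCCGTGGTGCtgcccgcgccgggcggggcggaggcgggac
A match is a description of letters in the window, and binding was not measured.

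Most of the listed genes of astrocytes and of the oligodendrocyte lineage were higher in brain. Of 31 astrocyte genes 18 were above every other tissue (median 1.85), of 29 oligodendrocyte genes 20 (median 1.86) and of 14 precursor genes 8 (median 2.74), and none of the 3 lists had a member below. Aldoc, the aldolase of astrocytes, had a brain mean of 13.01 (SD 0.08, n = 8) and differed by 5.22, with kidney and liver at 7.79 and 7.80. Gpr37l1, an astrocyte receptor, differed by 6.72, and S100b, a calcium-binding protein, by 6.40. Mobp and Mag, proteins of myelin, differed by 7.10 and 5.59. Olig1, a transcription factor of the oligodendrocyte lineage, differed by 4.91 because liver read 6.13, while heart, kidney and lung read 3.19 to 3.24.

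Of 21 microglial genes 4 were above every other tissue (19.0%, beside 9.62% of all genes) and none below, and their median was -0.97. P2ry12, a purine receptor of resident microglia, ran from 6.43 through 7.03 to 7.45 in brain and from 3.16 to 5.09 elsewhere, and differed by 2.48 (adjusted p = 1.31e-18 by limma). Gpr34 and Cx3cr1, receptors of the same cells, differed by 1.65 and 1.5. Trem2 differed by 1.23, but by 0.46 with the mean of its probe sets. Of 22 genes of the brain endothelium and barrier 2 were above, a share close to the 9.62% of all genes. They were Slco1c1, a thyroid hormone transporter (8.66, 8.79 and 8.97 at its lowest, median and highest, against 3.00 to 3.94 elsewhere), and Slc7a5, an amino acid transporter, which differed by 2.26. Slc2a1, the barrier's glucose transporter, exceeded the next tissue by 0.88 and was not called. Of 22 genes common to all endothelium, none was above and 5 were below (22.7% beside 4.3% of all genes): Eng by -2.22, Kdr by -1.97, Cdh5 by -1.74, Robo4 by -1.35 and Tie1 by -1.30. Kdr encodes a receptor of VEGF, and Cdh5 the cadherin that joins endothelial cells.

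**Figure D3:**
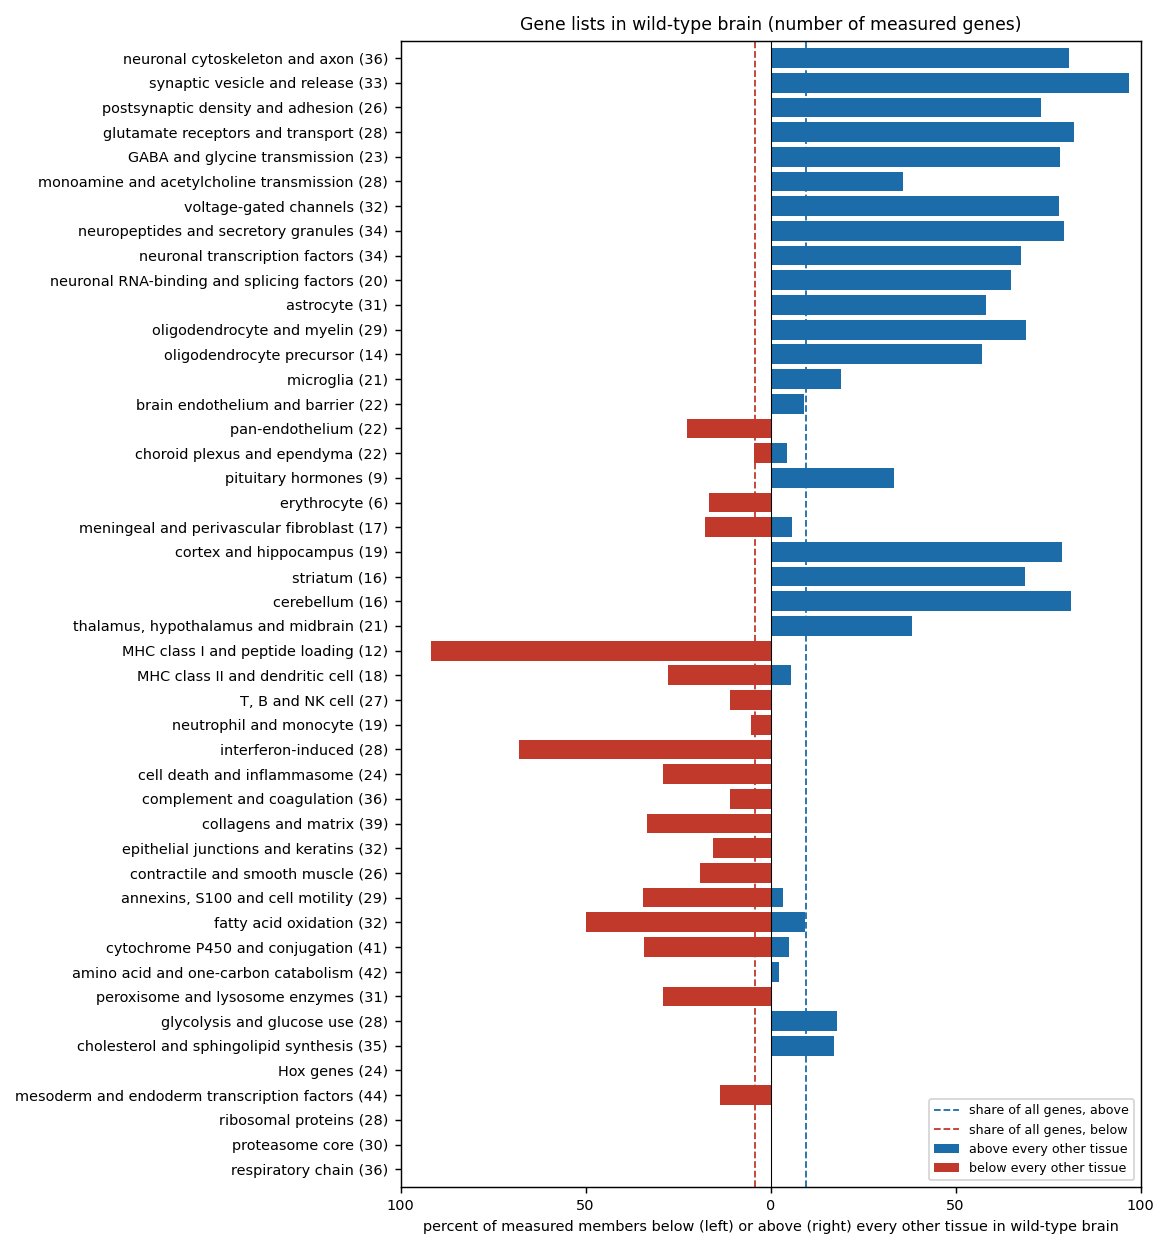
Percent of the measured members of each gene list that were above every other tissue (blue, right) or below every other tissue (red, left) in WT brain, with the number measured in brackets and dashed lines at the shares of all genes, 9.62% and 4.3%. Organ marker lists are not drawn. Of the lists drawn, synaptic vesicle genes reach furthest to the right and MHC class I genes furthest to the left.

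Most genes of 3 region lists were higher in brain. Of the genes above every other tissue there were 15 of 19 in the cortex and hippocampus list, 13 of 16 in the cerebellum list, 11 of 16 in the striatum list and 8 of 21 in the list of thalamus, hypothalamus and midbrain. The striatum count was 7 in males alone, with 4 arrays per tissue. The 2 brains with low Drd1 are male, and their part in this count was not tested. Spread among the 8 brains was otherwise small: the median SD over genes was 0.16, and 44 genes (0.257%) had an SD over 1. Pituitary hormones gave 3 of 9 above, but 0 of 9 in males alone and 1 of 9 in KO arrays. Prl differed from the other tissues by 0 in males and 0.82 in KO arrays. Of 22 choroid plexus genes, 1 was above and 1 below (4.5% each, beside 9.62% and 4.3% of all genes). Otx2, a transcription factor of the choroid plexus and forebrain, differed by 2.79, and Ttr, the thyroxine carrier made by choroid plexus and liver, differed from liver, its highest other tissue, by -0.70 and was not called.

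Nearly all listed genes of MHC class I and of peptide loading were lower in brain. Of 12 measured genes, 11 were below every other tissue and none above, with a median brain minus lowest other tissue of -2.0 against 0.17 over all genes. H2-K1, a class I heavy chain that presents peptides on most cells, ran from 8.34 through 8.59 to 8.97 in brain and from 10.94 to 12.79 elsewhere, and differed by -2.75 (adjusted p = 9.08e-31 by limma). H2-Q4 differed by -2.78, the immunoproteasome subunits Psmb8 and Psmb9 by -2.43 and -2.26, and Erap1, which trims the peptides, by -2.07. The weakest of their probe sets gave -0.24 for Psmb8 and 0.05 for Psmb9. Psmb10, named as the 1 exception, was neither. Class I genes are near copies of one another, so their probe sets may not separate the members. Of 18 class II and dendritic cell genes 5 were below (27.8% beside 4.3% of all genes). Among them were Cd74 at -3.96, H2-Aa at -3.92, H2-Eb1 at -3.64 and H2-Ab1 at -3.56, and Cd83 was above at 1.29. Markers of lymphocytes gave 3 of 27 below (11.1%), with Cd52 at -2.26, Ptprc, the pan-leukocyte CD45, at -1.94 and Ccl5 at -1.55. Markers of neutrophils and monocytes gave 1 of 19, near the share of all genes.

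Interferon-induced genes were lower in brain in most cases. Of 28 measured genes, 19 were below every other tissue and none above, with a median of -1.57. Iigp1, an immunity GTPase, ran from 3.41 through 4.33 to 4.77 in brain and from 7.76 to 12.12 elsewhere, and differed by -4.30 (adjusted p = 5.43e-25 by limma). Rsad2, an antiviral enzyme, ran from 4.70 through 5.18 to 5.86 in brain and from 6.35 to 10.16 elsewhere, and differed by -2.44. Igtp, another immunity GTPase, differed by -2.17, and Ifi47, of the same family, by -2.24. Of 24 genes of cell death and inflammasomes 7 were below (29.2% beside 4.3% of all genes) and none above. Tnfrsf1a, the main TNF receptor, differed by -2.56, and the caspases Casp6 and Casp8 by -2.41 and -2.31. The death receptor Fas differed by -2.08 and the Toll-like receptor adaptor Myd88 by -1.66. A second probe set of Casp6 gave -0.14. Tnfrsf1a ran from 5.80 through 6.12 to 6.29 in brain and from 8.42 to 9.80 elsewhere. Of 36 complement and coagulation genes 4 were below (11.1%), C1s1 by -3.19, C1ra by -2.82, Pros1 by -1.32 and C2 by -1.31.

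Interferon response elements hold repeated GAAA blocks. The letters GAAA and GAAA with any 2 bases between were searched on both strands. They stood in a window of 47 of the 597 lower genes (7.87%), 45 of the 1254 higher genes (3.59%) and 488 of all 13605 genes (3.59%). Here too a gene counted once if any of its windows matched. No test of these shares was made, and this pattern too was chosen for display after the counts were seen. The windows of 3 lower genes of these lists that hold it are shown as examples picked by hand, with the pattern in capitals, on GRCm38.p6 from RefSeq, 5′ to 3′ on the strand of the gene. In Rsad2 the pattern lies on the opposite strand and reads TTTC and TTTC.
Igtp (chr11:58199492-58199555, plus strand, pattern from base -34): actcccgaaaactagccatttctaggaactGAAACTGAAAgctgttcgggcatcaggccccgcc
Myd88 (chr9:119340019-119340088, minus strand, pattern from base -40): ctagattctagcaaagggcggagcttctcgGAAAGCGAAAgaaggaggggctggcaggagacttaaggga
Rsad2 (chr12:26456533-26456602, minus strand, pattern from base -120): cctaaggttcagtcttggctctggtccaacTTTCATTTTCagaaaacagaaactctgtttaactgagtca

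Connective tissue, junction and motility genes were partly lower. Of 39 collagen and matrix genes 13 were below every other tissue (33.3% beside 4.3% of all genes) and none above. Col14a1 differed by -3.48, Col3a1 by -3.38, Dpt by -3.36, Bgn by -2.43 and Col6a3 by -2.36. Col3a1, a fibrillar collagen, ran from 5.49 through 6.24 to 6.80 in brain and from 8.84 to 12.72 elsewhere (adjusted p = 7.18e-16 by limma). Of 32 epithelial genes 5 were below (15.6%), led by Dsp and Pkp2, parts of the desmosome, at -3.29 and -3.04. Of 26 contractile genes 5 were below (19.2%), with Csrp2 at -3.02 and Mylk, a kinase of smooth muscle myosin, at -1.80. The contractile count was 3 with the mean of probe sets and 8 with each array's median set to a common value. Of 29 annexin, S100 and motility genes 10 were below (34.5%) and 1 above. Lgals3, a galectin, differed by -3.22, Anxa4 by -2.84, Itgb1, the common beta integrin, by -2.38 and Anxa1 by -1.64.

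Brain had lower levels of many fatty acid oxidation genes. Of 32 genes, 16 were below every other tissue (50.0% against 4.3% of all genes) and 3 above (9.4%, near the 9.62% of all genes), with a median brain minus lowest other tissue of -1.08. Cd36, which takes up fatty acids, ran from 3.35 through 3.76 to 4.17 in brain and from 7.70 to 12.24 elsewhere, and differed by -5.32 (adjusted p = 1.05e-27 by limma). The mitochondrial enzymes Acaa2, Hadh, Acadl and Decr1 differed by -2.66, -2.05, -2.03 and -1.79, and a second probe set of Acadl gave -0.02. Cpt1a, the gate of the mitochondrial pathway, differed by -1.5, while its brain form Cpt1c, which is little active in oxidation, differed by 4.19. Acsl6, a brain acyl-CoA synthetase, differed by 4.01. Fabp4, the fatty acid carrier of fat cells and capillaries, differed by -4.53.

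Some enzymes that handle foreign compounds were lower as well. Of 41 genes of cytochrome P450 and conjugation 14 were below every other tissue (34.1% beside 4.3% of all genes). Only 2 were above (4.9% beside 9.62% of all genes). Adh1, which oxidises alcohols, differed by -3.84, Cyp2e1 by -3.78, Cyp4b1 by -3.77, Fmo1 by -3.20 and Gstm2, a glutathione transferase, by -4.45. The 2 above were Sult4a1, a brain sulfotransferase, at 6.31 and Cyp46a1, which clears cholesterol from neurons, at 5.35. Ces1d, a carboxylesterase of the same family as Ces1c, ran from 3.07 through 3.46 to 3.79 in brain and from 9.58 to 12.01 elsewhere, and differed by -6.43 (adjusted p = 4.93e-33). Other genes below every other tissue were Car3, a carbonic anhydrase, at -5.77, Aqp1, a water channel, at -4.85, and Selenbp2 and Selenbp1, near copies that probe sets may not separate, at -4.24 and -4.18. Of 31 peroxisome and lysosome enzymes 9 were below (29.0%), among them the protease Ctsh at -2.53. Igkj1, an antibody segment, differed by -4.22, and the brain of WT female 1264 read 6.51 against 3.29 to 4.21 in the other 7.

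Lists of glucose use and lipid synthesis had shares above every other tissue of 17.9% and 17.1%, beside 9.62% of all genes. Their medians of brain minus highest other tissue were -0.8 and -1.27, below the -0.48 over all genes. Of the glycolysis genes 7 were higher and 10 lower than in heart, and 14 higher and 2 lower than in liver. Of the lipid genes 21 were higher and 0 lower than in heart, and 7 higher and 16 lower than in liver. Of all genes 16.1% were higher and 16.5% lower than in heart, and 20.4% higher and 16.8% lower than in liver. Of 28 glycolysis genes 5 were above, with Eno2, the neuronal enolase, at 7.78, the glucose transporter Slc2a3 at 3.54 and the related sugar transporter Slc2a13 at 3.99. Pfkp, a phosphofructokinase, was above at 1.54, and at 0.95 with the mean of its probe sets. Of 35 cholesterol and sphingolipid genes 6 were above, including Elovl4, which makes very long fatty acids, at 4.07, St8sia5, a ganglioside enzyme, at 3.48, Cers1, a ceramide synthase of neurons, at 3.29 and Fa2h, which makes myelin lipids, at 1.73. Of 42 genes of amino acid and one-carbon catabolism 1 was above, Bcat1, at 1.63, and in males alone it differed by 0.12.

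No gene of 3 housekeeping lists was called against all 4 organs. Of 28 ribosomal, 30 proteasome and 36 respiratory chain genes, 0 were above and 0 below every other tissue. Their median brain minus highest differences were -0.38, -0.46 and -1.20 beside -0.48 for all genes. Against single organs, 24 respiratory chain genes were lower in brain than in heart, 5 than in kidney and 4 than in liver, and 9 were higher than in lung. Of all genes 16.5% were lower in brain than in heart, 17.9% than in kidney and 16.8% than in liver. The share of all genes higher than in lung was 15.4%. Of 24 Hox genes 0 were above or below, beside 9.62% and 4.3% of all genes. Hox genes lower in brain numbered 17 against kidney, 7 against lung, 1 against liver and 0 against heart. The same shares of all genes were 17.9%, 18.6%, 16.8% and 16.5%. The Hox list mean was dim in brain (3.43), heart (3.71) and liver (3.79), where differences are compressed. Of 44 transcription factors of mesoderm and endoderm 6 were below (13.6% beside 4.3% of all genes). They were led by Tcf21, a factor of fibroblast and kidney progenitors, at -3.61. Cebpb differed by -1.58, Pparg, a regulator of fat cells, by -1.58 and Cebpa by -1.36.

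In several gene families a brain form was higher while a related form was lower or was not called. Vamp2, the vesicle SNARE of neurons, was above by 2.78 (9.81, 9.86 and 10.13 at its lowest, median and highest, adjusted p = 2.39e-22 by limma), and Vamp8, a SNARE of other secretory cells, was below by -2.22 (6.99, 7.43 and 7.77, adjusted p = 4.02e-24). Neither overlapped with another organ. Slc12a5 was above by 6.78 and Slc12a7, a relative that also exports potassium and chloride, was below by -3.81 (adjusted p = 6.85e-26), and Slc12a2, which imports chloride, was neither. Dnm1 and Dnm3, the dynamins of synapses, were above by 5.71 and 5.46, and Dnm2 was neither. Kif5a and Kif5c were above by 8.50 and 7.91, and Kif5b, which most cells use, exceeded the next tissue by 0.41 and was not called. Aldoc was above and Aldoa was neither. Among glycogen phosphorylases no form was above: Pygl, the liver form, was below by -1.91, and Pygm was neither. Pygb, the brain form, was neither as well, and its brain minus highest other tissue was -1.85. Ptbp1, the splicing repressor of non-neuronal cells, was below by -1.22, though by -0.63 with the mean of its probe sets.

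**Figure D4:**
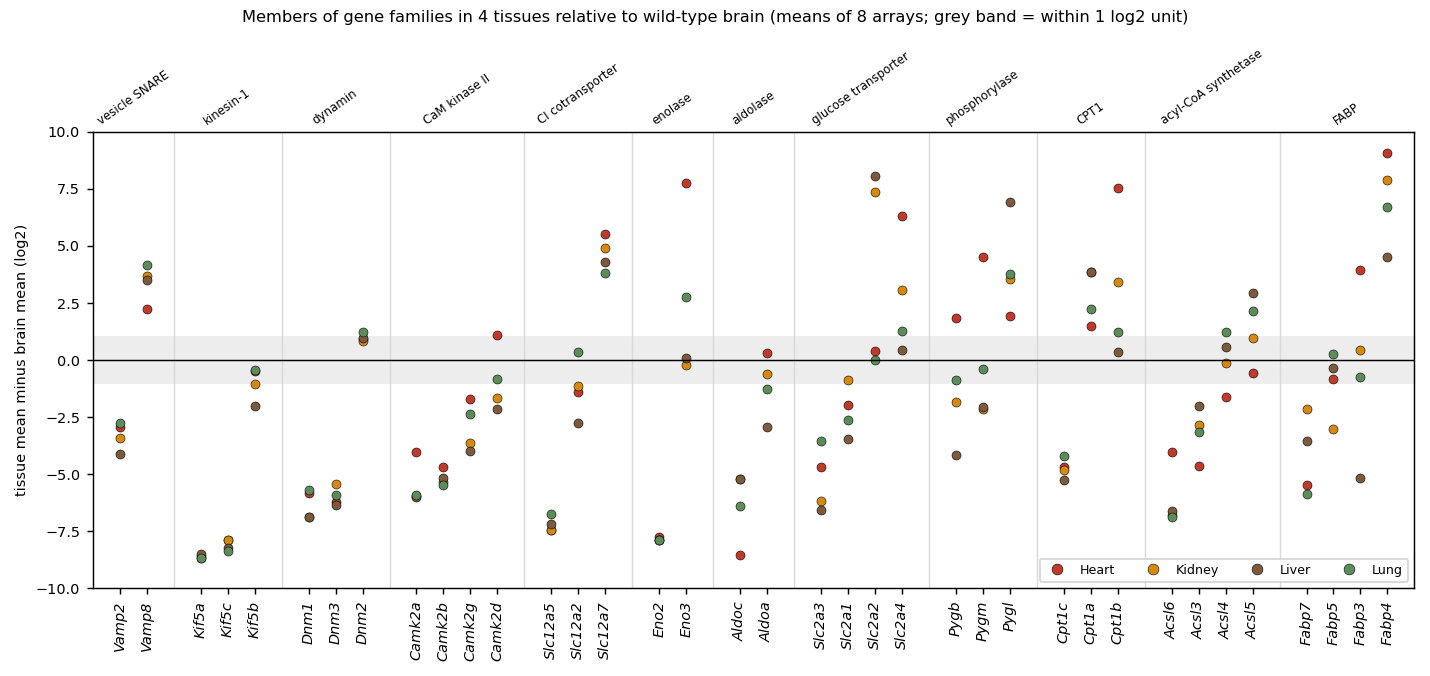
Tissue mean minus brain mean (log2, vertical axis; 8 arrays per mean) for members of 12 gene families in heart, kidney, liver and lung, with a grey band at differences within 1 log2 unit. For Vamp8, Slc12a7, Cpt1a, Pygl and Fabp4 all 4 tissues lie above brain, and for Vamp2, Slc12a5, Cpt1c and Acsl6 all 4 lie below.

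Against each organ singly, calls split nearly evenly. Brain minus heart gave 2745 higher genes (16.1%) and 2829 lower (16.5%), brain minus kidney 2735 (16%) and 3054 (17.9%), brain minus liver 3480 (20.4%) and 2880 (16.8%), and brain minus lung 2637 (15.4%) and 3175 (18.6%). The 4 comparisons share the 8 brain arrays. The split against liver depended on scaling: 54.7% of its calls were higher in brain, but 35.8% when each array's median was set to a common value and 50.6% after renewed quantile normalization. For heart the share went from 49.2% to 41.0% with the medians set. Setting the medians moved the median difference over all genes from -0.11 to -0.33 for heart and from -0.13 to -0.64 for liver. The widest lower differences were organ genes: Actc1, cardiac actin, at -10.04 against heart, Klk1, a kallikrein of kidney tubules, at -10.20 against kidney, Serpina1b, alpha-1 antitrypsin, at -9.89 against liver, and Sftpc, a surfactant protein, at -10.07 against lung. The tissue nearest below brain for the 1645 higher genes was heart for 460, lung for 444, liver for 437 and kidney for 304.

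Few genes were called between the sexes in brain. Male minus female brain gave 9 genes (0.0526%) at the full rule and 68 (0.398%) by adjusted p alone. The count moved with single brains: it was 25 without WT male 901, 17 without WT female 1264, 16 without WT female 936 and 16 without the 3 brains with low region markers. Xist, the RNA that silences one X chromosome, differed by -6.67 (adjusted p = 4.79e-27 by limma), and the Y-linked genes Eif2s3y and Kdm5d by 3.52 and 2.51. The X-linked gene Eif2s3x differed by -0.65 and Lrch2 by -0.74. In KO brains Eif2s3x differed by -0.54 and Lrch2 by -0.11 (adjusted p = 1). Of the 68 genes, 5 were called with the same sign in KO brains and 48 had the same sign. Prl differed by -3.66, with the low female value of 3.55 in WT female 1264 within the range of males, and by -1.22 in KO brains. Brain differences that depended on sex were few against heart (2 genes, 0.0117%) and lung (1 gene, 0.00585%) and more frequent against kidney (291, 1.7%) and liver (246, 1.44%). For Cd36, brain minus kidney in males minus the same in females was -1.5, and for brain minus liver it was 1.58, while male minus female brain was not called.

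The KO arrays, which entered the choice of probe sets but not the fit of the calls above, gave nearly the same brain genes. Of the 1645 higher genes 1606 were called above every other tissue in KO mice, which is 97.6% of the WT set and 94.7% of the 1695 in KO. Of the 736 lower genes 674 were called, 91.6% of the WT set and 91.3% of the 738 in KO. All 1645 and all 736 had the same sign in KO arrays. The median size was 2.38 in WT and 2.46 in KO for the higher genes and -1.53 in both for the lower genes, and the median absolute difference per gene was 0.11 and 0.12. Gene by gene the lowest KO value among the higher genes belonged to Pomc, at 0.15.

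**Figure D5:**
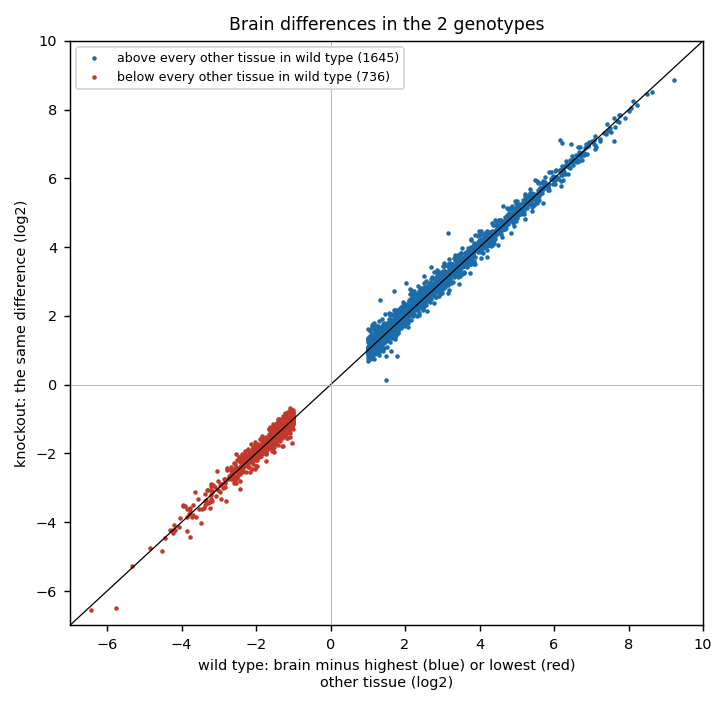
Brain minus the highest other tissue for the 1645 genes above (blue) and brain minus the lowest for the 736 genes below every other tissue (red), in WT arrays (horizontal axis, log2) and in KO arrays (vertical axis, log2), with the line of equal values. All points lie on the same side of 0 in both genotypes, and the blue point nearest to 0 in KO arrays is Pomc, at 0.15.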

How the data were processed

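RNA of 5 tissues was measured on 80 Affymetrix mouse arrays, 1 per sample, and the 8 WT brain arrays were compared with the other 32 WT arrays. The authors deposited log2 expression values from RMA normalization, with Affymetrix Expression Console, RMA and Partek named in the submitters' processing notes. Whether the tissues were normalized together is not given in the sources used here. The deposited log2 values run from 2.23 to 14.06, with a median of 4.07. Array data give no read depth, and precision rests on how many arrays a group has.

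Of 45141 deposited probe sets, 104 are controls, 28898 have 1 gene in the platform annotation, 551 have several and 15588 are unnamed here. Symbols were updated through gene IDs, and each of 17097 genes was represented by its brightest probe set, judged by the mean of the 80 arrays. limma 3.58.1 in R 4.3.3 (lmFit, contrasts.fit and eBayes) was fitted to the 40 WT arrays with 10 groups of tissue by sex, 4 arrays each, and p-values were adjusted by Benjamini-Hochberg over all genes. No covariate or block was used. The fit was tested on simulated data. An animal number pairs tissues by animal: deviations from the group means correlated with a median of 0.048 over 29 within-animal pairs and -0.007 over 227 pairs of different animals. The highest correlation was 0.236 within animals and 0.206 between different animals. Numbers in the titles name the animals, so p-values measure the spread between animals of 1 tissue and sex. Tissues of 1 animal were treated as independent in this fit. No column belonged to another series and no 2 columns were identical.

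Named genes were the 3 markers, the 12 largest differences above and below every other tissue, the 3 largest each way per tissue pair, up to 5 members per gene list and 2 of the opposite direction, members of paralog families, the 10 genes with the largest SD over the brains, and up to 5 genes by adjusted p between the sexes. The members and the lists were chosen with earlier results of these data known. Alternatives were the probe set rule, the normalization, the variance model, array weights, thresholds, a filter on dim genes, the animal as a block, each sex alone, all 80 arrays or the KO arrays in the fit, and arrays left out.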

Additional observations from a re-analysis of the deposited data

Results flagged for a closer look

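Of 178 sets of 8 WT brains looked at, 157 for genes named in the text and 21 for gene list means, 18 had 1 array far from the other 7, where chance flags about 1 in 20 groups. The genes include some named for their large SD over these same brains, so the count is not a test against that rate. The low arrays were Gabra6 at 3.64, Pcp2 at 3.75 and the cerebellum list mean at 5.31, all in WT female 1265, Hba-a1 at 9.86 and the erythrocyte list mean at 6.31, and Anxa4 at 4.50, Bche at 4.90, Bgn at 6.72, Pkp2 at 3.93 and Tie1 at 3.34. The high arrays were Ckm at 7.79, the heart muscle list mean at 4.43, Actc1 at 4.24, Adh1 at 4.75, H2-Aa at 6.37, H2-Ab1 at 5.47, Igkj1 at 6.51 and Slc12a5 at 12.26.

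For 18 of 628 combinations of a named gene and an organ, the brain difference in males minus that in females passed an adjusted p of 0.05 by limma and 1 log2 unit. Of all genes 0.0117% passed against heart, 1.7% against kidney, 1.44% against liver and 0.00585% against lung. The named genes include some picked by their adjusted p between the sexes, so the count is not a test against these shares. Against kidney it was -3.88 for Prl, -3.03 for Bcat1, -2.44 for Cyp4b1, -1.60 for Adh1, -1.54 for Eif2s3y, -1.5 for Cd36 and 1.23 for H2-Q4. Against liver it was -3.60 for Prl, -2.39 for Olig1, -1.76 for Eif2s3y, 1.58 for Cd36, 1.27 for H2-Ab1, 1.14 for Igtp, 1.07 for Fas and 1.07 for Pygb. Against heart it was -1.90 for Eif2s3y and -1.72 for Xist, and against lung -1.33 for Eif2s3y.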

How the results depend on the processing

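With the adjusted p alone, the counts higher and lower in brain were 5200 and 6989 against heart, 5157 and 6383 against kidney, 5850 and 7717 against liver, 5446 and 6194 against lung, 3027 above and 2517 below every other tissue, and 68 between the sexes. With a minimum of 2 log2 units they were 1559 and 1241, 1580 and 1508, 2052 and 1548, 1417 and 1639, 972 and 202, and 4. The genes lower in brain than in liver numbered 4665 with each array's median set to a common value, and the genes between the sexes 5 with the mean of probe sets, 5 in KO arrays and 16 without 3 brains. The cause was not tested. Leaving out 1 array at a time gave 2726 to 2755 and 2818 to 2876 against heart, 2715 to 2759 and 3041 to 3108 against kidney, 3460 to 3504 and 2858 to 2888 against liver, 2619 to 2656 and 3155 to 3218 against lung, 1622 to 1653 above, 729 to 748 below, 7 to 25 between the sexes and 34 to 52 genes with an SD over 1. With the mean of probe sets, 1539 genes were above and 618 below, Elavl1 turned to 0.92 and Tubb5 to -0.29. In males alone Prl was 0.

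With the animal as a random replicate block, 1646 genes were above and 737 below every other tissue, the consensus correlation was 0.057, and no named gene changed its call. Genes at background in brain or in the other organs have compressed differences, and the setting with region markers was chosen after seeing the data.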
